A study of Homo sapiens with 6 samples.

Results

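The fibroblast growth factor (FGF) signalling genes described here are 35 genes taken by name: 11 secreted ligands, 4 intracellular FGF homologous factors, 5 receptors, 2 receptor adaptors and 13 feedback genes. They were followed in astrocytes made from H1, an established line of human embryonic stem cells, in 3 libraries labelled control (forebrain) and 3 labelled ventral midbrain. Both groups come from the same line, the labels give the cells as astrocytes by source, and they name no genetic change, drug, age in culture or medium for either, so no source used here says whether FGF was added to the cells. The libraries are numbered 2, 3 and 4 in each group, the labels do not say that they came from separate cultures, and p-values therefore measure only the spread between these samples. RNA was read from the 3' end of polyadenylated transcripts, with 11617900 to 15391100 estimated reads per library, rounded to 6 digits. Of the 35 genes, 33 had at least 1 read and 29 passed the filter on low counts, which left 15984 of 27439 genes with reads to be tested.

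FGF ligands bind receptor tyrosine kinases together with heparan sulfate on the cell surface. The adaptor FRS2 passes the signal to the RAS-ERK kinase chain, and ERK turns on ETV transcription factors along with its own inhibitors, among them the Sprouty proteins, DUSP6 and SEF (encoded by IL17RD). In the embryo FGF8, FGF17 and FGF18 are ligands of the isthmic organizer at the border of midbrain and hindbrain, while FGF2 is widely used to keep neural progenitors dividing in culture.

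Promoter windows of the set are shown because ERK acts on many of the feedback genes through ETS factors, the family to which the ETV proteins belong. The RefSeq table of promoters (GRCh38.p14) held windows for 25 of the 35 genes, 52 windows in all, each from 250 bases before a transcription start to 50 after it. It held none for FGF8, FGF9, FGF17, FGF19, FGF20, FGFR1, DUSP4, DUSP5, ETV4 or ETV5, so their promoters were not searched. The ETS core letters CGGAAG, read on both strands, stood in 4 of these 52 windows (7.69%), against 19.5% of all 35116 windows in the table. The 4 windows belong to the feedback genes DUSP6, SPRED2 and SPRY1 and to the adaptor gene FRS2. A stretch of 30 bases around each match is printed 5′ to 3′ on the strand of the gene, with the matched letters, or their reverse complement, in capitals. The 4 stretches lie at chr12:89352546-89352575 (minus strand), chr12:69470362-69470391 (plus), chr2:65432550-65432579 (minus) and chr4:123398308-123398337 (plus).
DUSP6: cggcaacagcccCTTCCGcagcacgctcat
FRS2: cccccgctccccCGGAAGtgcttttccaag
SPRED2: gctgggaagacgtcatcgCTTCCGccctac
SPRY1: gccctccgcagcCGGAAGggggccgcgggg
The matches begin 62, 14 and 66 bases before the start in DUSP6, FRS2 and SPRY1, and 38 bases after it in SPRED2, counted from the RefSeq start of each window. Counted from the GENCODE start of the transcript with the most reads, the DUSP6 and SPRY1 matches lie 708 and 1525 bases inside the transcript, and those of SPRED2 and FRS2 lie 384 and 87415 bases before it. Reads from the 3' end do not show which start was used. The AP-1 letters TGANTCA, also read on both strands, stood in 5 of the 52 windows and in 7.71% of all windows. None of the 3 windows of SPRY2 held the letters CGGAAG, and other forms of an ETS site were not searched. The RefSeq start shown for SPRY2 lies 175 bases from the start of its most read transcript, SPRY2-202. The 250 bases before it (chr13:80341127-80341376, minus strand) are shown because SPRY2 is the only gene of the set that passed as higher in a fit with the replicate number as a block.
SPRY2: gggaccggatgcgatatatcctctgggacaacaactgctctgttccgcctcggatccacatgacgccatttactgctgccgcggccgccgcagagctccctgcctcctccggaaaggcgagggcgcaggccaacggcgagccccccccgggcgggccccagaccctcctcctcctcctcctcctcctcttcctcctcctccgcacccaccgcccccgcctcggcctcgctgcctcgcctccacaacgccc
A match or its absence describes these letters alone.

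All 10 astrocyte markers had reads in these libraries, with summed levels of 1546 to 1997 CPM in control and 1133 to 1891 CPM in ventral midbrain libraries. GFAP, the astrocyte filament protein, was at 267 to 459 CPM (read counts scaled to a common library size) in control and 175 to 618 CPM in ventral midbrain libraries, and S100B at 5.78 to 8.98 and 5.79 to 10.6 CPM. Other markers of this list differed between the groups. The water channel gene AQP4 (3.86 ± 2.25 to 30.5 ± 17.2 CPM), the glutamate transporter gene SLC1A3 (35.4 ± 11.3 to 94.4 ± 26.7 CPM) and NFIA (110 ± 14.9 to 196 ± 36.3 CPM; SD, n = 3) rose in ventral midbrain libraries (edgeR adjusted p = 0.0477, 0.0345 and 0.0453), and SOX9, GJA1 and CD44 fell in the fit with the replicate number as a block (edgeR adjusted p = 0.0297, 0.00789 and 0.00452). GJA1 and CD44 overlapped between the groups. The marker calls of this paragraph were not refitted without single libraries. The midbrain homeobox gene EN1 separated the groups as the labels have it, at 3.93 to 6.59 CPM in control and 191 to 219 CPM in ventral midbrain libraries. Replicate 3 stood apart in both groups: the summed level of 10 cell cycle genes was 2500 CPM in control replicate 3 against 720 and 744 CPM in the other control libraries, and 3535 CPM against 1046 and 957 CPM in ventral midbrain. The 9 markers of neural progenitors and radial glia all had reads, and VIM was the largest part of their sums. These were 4574 to 5437 CPM in control and 5283 to 6485 CPM in ventral midbrain libraries. PAX6 fell (57.0 ± 28.7 to 12.7 ± 2.79 CPM) and PROM1 rose (5.23 ± 1.19 to 19.5 ± 4.84 CPM; edgeR adjusted p = 0.0186 and 0.00705). Of the 9 markers 6 overlapped between the groups. Other cell types were visible too. All 10 mesenchymal markers had reads, and their summed level was 1024 to 1677 CPM in control and 533 to 643 CPM in ventral midbrain libraries. COL1A1 (910 ± 213 to 277 ± 38.4 CPM) was the largest part of these sums. Of the 10 genes 6 were lower in every ventral midbrain library than in any control library, against 8.75% of all genes tested. Another 3 (POSTN, LUM and DCN) were higher in every one, against 9.17%, and PDGFRB overlapped. The 10 neuron markers, all with reads, summed to 1269 to 2000 and 713 to 1190 CPM. STMN2 (1061 ± 409 to 449 ± 260 CPM; SD, n = 3) was the largest part of the control sums. STMN2, DCX and NEFM were lower in every ventral midbrain library (against 8.75% of all genes tested), while the other 7, TUBB3 and MAP2 among them, overlapped. Of 6 pluripotency markers TDGF1 had no read and the sum was 7.35 to 16.9 CPM over all libraries, while SOX10 and TTR, defining genes of the oligodendrocyte lineage and the choroid plexus, had no read at all. The 7 markers of each of these lineages summed to 156.5 to 197.7 CPM in control and 113.9 to 133.3 CPM in ventral midbrain libraries for oligodendrocytes, and to 6.81 to 20.04 and 59.7 to 91.8 CPM for choroid plexus and ependyma.

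The main test was the quasi-likelihood test of edgeR, called at an adjusted p (Benjamini-Hochberg) under 0.05. Of the 29 genes it called 1, FGFR1, which fell 2.05-fold between the group means. That is 3.45% of the 29, against 1.09% of all genes tested that were lower and 2.15% called in either direction. None passed as higher in edgeR, DESeq2 or limma voom (0 in each), against 1.06% of all genes tested in edgeR, and 1, FGFR3, was higher at an unadjusted p under 0.05. With the replicate number as a block, DUSP4, FGF19 and FGFR1 passed as lower (10.3%, against 4.50% of all genes) and SPRY2 as higher (3.45%, against 3.63%), so that 4 of 29 (13.8%) were called against 8.13% of all genes in that fit. At an unadjusted p under 0.05 there were 6 of 29 (20.7%), against 12.0% of all genes. The groups did not overlap for 4 genes that were lower (13.8%, against 8.75% of all genes) and 1 that was higher in ventral midbrain (3.45%, against 9.17%), together 5 of 29 (17.2%) against 17.9% of all genes. The median log2 fold change of the 29 was -0.13, beside 0.01 over all genes tested, and 9 were positive and 20 negative. That median was -0.23, 0.22 and -0.75 in the numbered pairs 2, 3 and 4, so pair 3 ran the other way from the rest.

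**Figure D1:**
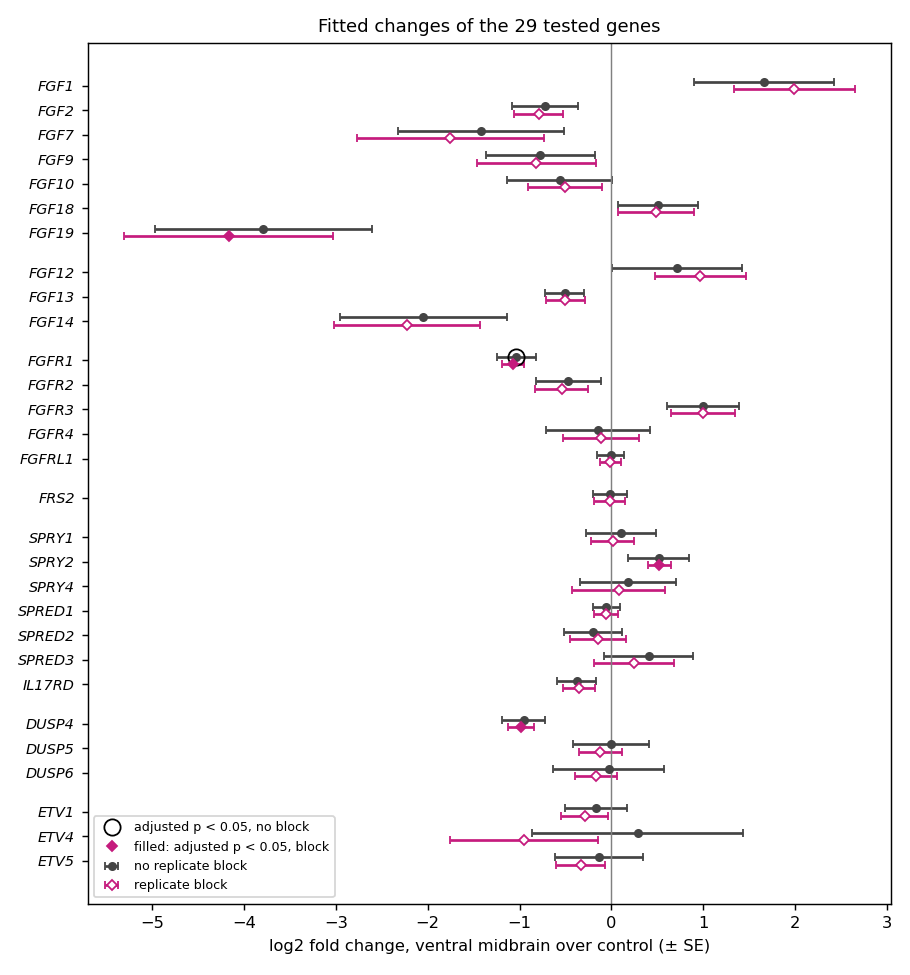
Log2 fold change of ventral midbrain over control (x axis) with its standard error for the 29 tested genes, grouped from top to bottom as secreted ligands, intracellular factors, receptors, adaptor, inhibitors, DUSP phosphatases and ETV factors. Grey points are the fit without and pink points the fit with the replicate block; the ringed point, FGFR1 at -1.04, is the single call without the block, and filled pink points (FGF19, FGFR1, SPRY2, DUSP4) are the calls with it.

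FGFR1, a receptor tyrosine kinase for many FGF ligands (ENSG00000077782.20, GRCh38 chromosome 8, 38400215 to 38468834), had most of the receptor reads in every library. It was at 821, 682 and 807 CPM in control replicates 2, 3 and 4 and at 446, 257 and 424 CPM in the ventral midbrain libraries of the same numbers. Each ventral midbrain library lay below each control library, and replicate 3 was the lowest of its group on both sides. The group values were 770 ± 77.0 CPM and 376 ± 103 CPM (SD, n = 3), which is -1.04 ± 0.21 on the log2 scale (SE; edgeR adjusted p = 0.0345). Within the numbered pairs the ventral midbrain level was 0.542, 0.378 and 0.525 times that of the control. The call was lost without any 1 of the 6 libraries, control replicates 2, 3 and 4 and ventral midbrain replicates 2, 3 and 4 alike (edgeR adjusted p from 0.0507 to 0.156, log2 fold change from -1.18 to -0.82), and also under a gene-length offset (0.0681). It held without replicate 3 in both groups, an alternative chosen after seeing the data (-0.90, edgeR adjusted p = 0.0361). The summed mesenchymal and neuron markers were also lower in every ventral midbrain library than in any control library, though not every gene of these lists was (3 of 10 mesenchymal markers were higher and 7 of 10 neuron markers overlapped, as given above), and their part in the FGFR1 result was not tested. FGFR1 also overlaps LETM2 on the opposite strand (14 to 94 reads per library). In bulk RNA, fewer cells that express a gene and less of its RNA per cell cannot be told apart.

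The other receptors did not pass the test. FGFR3, a receptor found in astrocytes and their progenitors, was at 4.9, 5.99 and 2.65 CPM in control and at 5.59, 11.5 and 9.95 CPM in ventral midbrain replicates 2, 3 and 4. It was higher in each of the 3 numbered pairs, although ventral midbrain replicate 2 lay below control replicate 3, and its log2 fold change was 0.999 ± 0.395 (SE; edgeR adjusted p = 0.316). The direction was thus opposite to that of FGFR1. FGFR2, whose alternative forms bind different ligands, was at 10.5 to 17.4 CPM in control and 6.37 to 16.1 CPM in ventral midbrain libraries, and FGFR4 at 1.45 to 5.22 and 1.73 to 5.44 CPM. FGFRL1, a receptor that lacks the kinase domain, was at 80.2 ± 4.8 and 79.9 ± 8.32 CPM (SD, n = 3), with a fitted log2 difference of -0.01 ± 0.15 (SE). FGFR1 took 97.0% to 97.4% of the reads of the 4 kinase receptors in control and 92.3% to 95.1% in ventral midbrain libraries. Per length, on the deposited TPM scale, these shares were 96.7% to 97.8% and 91.3% to 94.9%. FGFR1 thus remained the main receptor transcript in all 6 libraries, and its share was lower in every ventral midbrain library.

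**Figure D2:**
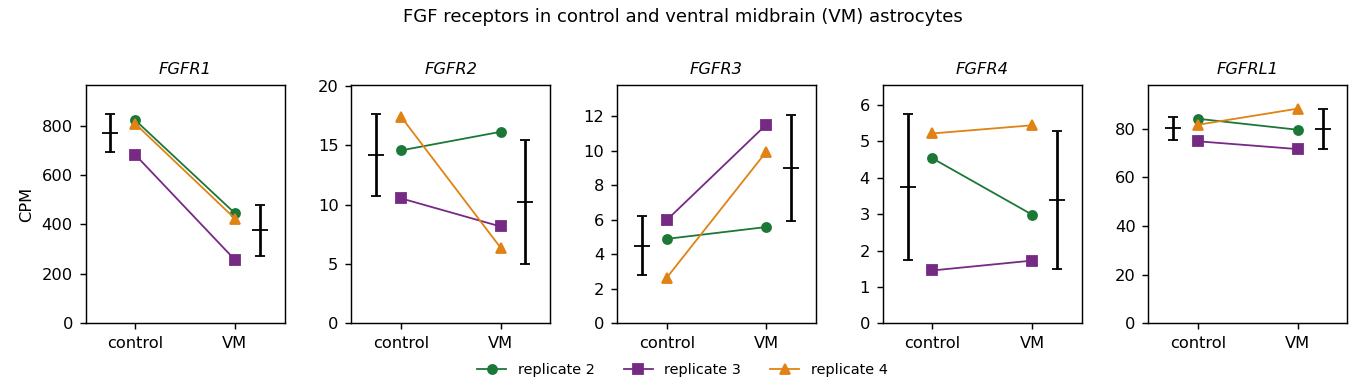
CPM of the 5 receptor genes (y axis, from 0) in control and ventral midbrain (VM) libraries. Lines join libraries of the same replicate number, and black bars give the mean ± SD of 3 libraries; the FGFR1 lines all slope down, from 682 to 821 CPM down to 257 to 446 CPM, and the FGFR3 lines all slope up.

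Among the adaptors that link receptors to RAS, FRS2 was at 28.8 ± 2.98 CPM in control and 28.6 ± 3.48 CPM in ventral midbrain libraries (SD, n = 3; log2 fold change -0.01 ± 0.18, SE). FRS3, its paralog, had 1 to 5 reads in 5 libraries and 26 reads in ventral midbrain replicate 4, too few to be tested. FRS3 also overlaps AL365205.1, a gene on the opposite strand with 1069 to 1578 reads per library, so its few reads are uncertain.

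Few secreted ligands were measured well. The ligands of the isthmic organizer were nearly absent apart from FGF18. FGF8 had 2 reads, both in control replicate 2, and FGF17 had 4, all in ventral midbrain replicate 3. FGF20 had no read in any library, which allows up to 3 reads, or 0.195 to 0.257 CPM, per library (counting error only), and FGF5 had 2 reads in all. FGF18 was at 7.1, 7.79 and 3.18 CPM in control and 4.36, 10.3 and 11.0 CPM in ventral midbrain replicates 2, 3 and 4, with overlapping groups and opposite directions in pair 2 and pairs 3 and 4 (log2 fold change 0.51 ± 0.44, SE; edgeR adjusted p = 0.745). Of the organizer genes chosen as context, EN1 and EN2 rose, 2 of the 8 tested, against 1.06% of all genes tested. In the fit with the replicate block PAX8 and GBX2 also rose (edgeR adjusted p = 0.000385 and 0.0222) and OTX2, a forebrain and midbrain factor, fell (0.00136). In that fit 3.63% of all genes rose and 4.50% fell. Of the 11 organizer genes 6 were higher in every ventral midbrain library than in any control library, WNT1 and LMX1B among them. Another 2, OTX2 and SP8, were lower in every one. Over all genes tested these shares were 9.17% and 8.75%. WNT1, LMX1B and SP8 passed in neither fit. EN2 (edgeR adjusted p = 0.00623) went from 2.02 ± 0.5 to 29.02 ± 15.5 CPM (SD, n = 3), a call that was lost without control replicate 2 or 4 (highest edgeR adjusted p = 0.0624) and with limma voom (0.182). FGF8 had no read in the ventral midbrain libraries, where the EN genes were high, which allows up to 0.195 to 0.235 CPM.

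FGF19, an endocrine ligand that is also made in the embryonic brain (ENSG00000162344.3, GRCh38 chromosome 11, 69698232 to 69704642), had 11, 37 and 31 reads in control replicates 2, 3 and 4. In the ventral midbrain libraries it had 0, 0 and 6 reads, so all of its ventral midbrain reads came from replicate 4. The groups did not overlap, at 0.805 to 3.17 CPM against 0 to 0.43 CPM. It did not pass the main test (log2 fold change -3.79 ± 1.18, SE; edgeR adjusted p = 0.17) and fell in the fit with the replicate block (edgeR adjusted p = 0.0386). It also passed with DESeq2 (adjusted p = 0.0244) and with no low-count filter (edgeR, 0.0104), but in none of the 6 fits without 1 library (edgeR adjusted p from 0.0757 to 0.412). With so few reads a fitted fold change leans on the prior count and gives the direction more than the size.

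FGF1 and FGF2, ligands that lack a classical signal peptide, differed in opposite directions without passing the test. FGF1 had 2, 10 and 25 reads in control and 32, 38 and 58 reads in ventral midbrain replicates 2, 3 and 4, the only gene of the set whose ventral midbrain libraries all lay above all control libraries (log2 fold change 1.66 ± 0.76, SE; edgeR adjusted p = 0.421). FGF2 was at 15.8, 9.84 and 16.3 CPM in control and 13.5, 5.88 and 6.02 CPM in ventral midbrain replicates 2, 3 and 4. It was lower in all 3 pairs, but ventral midbrain replicate 2 lay above control replicate 3 (log2 fold change -0.72 ± 0.36, SE; edgeR adjusted p = 0.478). NUDT6, the antisense partner of FGF2, had 34, 64 and 28 reads in control and 115, 85 and 81 in ventral midbrain libraries (edgeR adjusted p = 0.371). No source used here states that reads were counted by strand, so reads of this pair may not be fully separated.

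The remaining tested ligands were FGF7 and FGF10, which in many tissues come from mesenchyme, and FGF9, a ligand of glia and neurons. FGF7 was at 0.941 to 1.66 CPM in control and 0.13 to 1.02 CPM in ventral midbrain libraries, FGF10 at 1.88 to 7.61 and 1.96 to 5.14 CPM, and FGF9 at 1.74 to 3.76 and 0.784 to 2.43 CPM. All 3 fold changes were negative, all 3 had overlapping groups, and their edgeR adjusted p was 0.622, 0.808 and 0.708. FGF7 overlaps FAM227B on the opposite strand (40 to 123 reads per library), so its few reads are uncertain. In all, 2 of the 7 tested secreted ligands had a positive and 5 a negative fold change, and the summed level of the 11 ligands was 28.2 to 35.1 CPM in control and 23.4 to 26.6 CPM in ventral midbrain libraries.

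The intracellular FGF homologous factors do not signal through FGF receptors and are known as partners of voltage-gated sodium channels, mostly in neurons. FGF13 was at 15.9, 13.4 and 15.1 CPM in control and at 10.5, 10.4 and 10.5 CPM in ventral midbrain replicates 2, 3 and 4. All ventral midbrain libraries lay below all control libraries, and their near identity is closer than counting error on 133 to 161 reads would give on average (log2 fold change -0.51 ± 0.21, SE; edgeR adjusted p = 0.364). FGF14 had 42, 40 and 9 reads in control and 3, 17 and 3 reads in ventral midbrain libraries (log2 fold change -2.05 ± 0.91, SE; edgeR adjusted p = 0.405). It was lower in all 3 pairs, with overlap between control replicate 4 and ventral midbrain replicate 3, and it overlaps FGF14-AS2 on the opposite strand (92 to 148 reads per library). FGF12 was at 2.27 ± 1.66 and 3.72 ± 1.66 CPM (SD, n = 3) and higher in all 3 pairs (edgeR adjusted p = 0.794). No read was assigned to FGF11, while AC113189.4, a noncoding transcript that overlaps it on the same strand, had 72 to 391 reads per library, so FGF11 itself may not have been separable. The summed neuron markers were lower in ventral midbrain libraries, with 3 of 10 genes apart and 7 overlapping as given above, and their part in the FGF13 and FGF14 values was not tested.

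**Figure D3:**
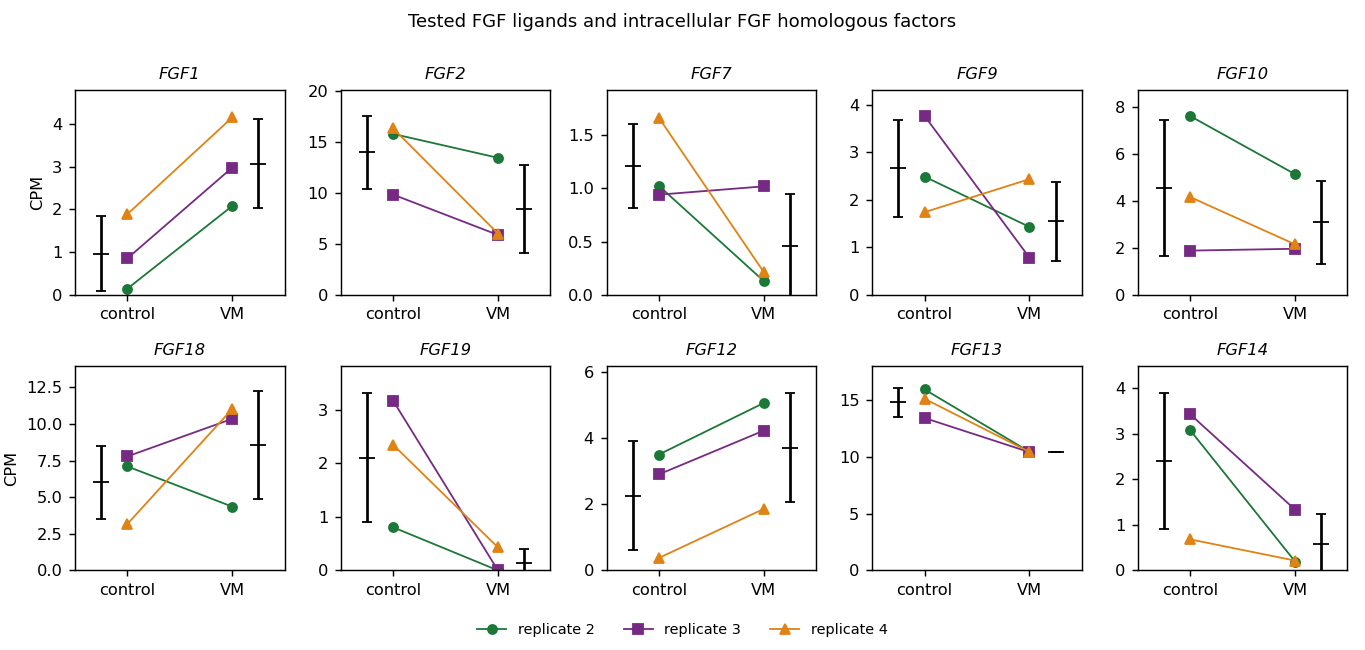
CPM of the 7 tested secreted ligands and the 3 tested intracellular factors (FGF12, FGF13, FGF14) in control and ventral midbrain (VM) libraries, with axes from 0. Lines join libraries of the same number and black bars give the mean ± SD of 3 libraries, cut off at 0 where they would pass below it; FGF19 ends at 0 in replicates 2 and 3, and FGF1 is the only gene with all VM points above all control points.

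The 13 feedback genes did not share a direction. DUSP4, a nuclear phosphatase that inactivates ERK and related kinases (ENSG00000120875.8, GRCh38 chromosome 8, 29333064 to 29350668), was at 69.8, 59.6 and 47.6 CPM in control replicates 2, 3 and 4. The ventral midbrain libraries of these numbers were at 36.9, 34.0 and 20.4 CPM, each below every control library and 0.528, 0.57 and 0.428 times the control of the same number. The order of the numbers, 2 above 3 above 4, was the same in both groups. DUSP4 did not pass the main test (log2 fold change -0.96 ± 0.24, SE; edgeR adjusted p = 0.0749) and fell in the fit with the replicate block (-0.98 ± 0.14, SE; edgeR adjusted p = 0.000613). It passed with DESeq2 (adjusted p = 0.00943) and with no low-count filter, but not in any fit without 1 library (edgeR adjusted p from 0.103 to 0.235).

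SPRY2, a Sprouty inhibitor of receptor tyrosine kinase signalling (ENSG00000136158.11, GRCh38 chromosome 13, 80335976 to 80340951; promoter printed above), went the other way. It was at 68.5, 47.1 and 32.3 CPM in control and 93.8, 71.4 and 46.1 CPM in ventral midbrain replicates 2, 3 and 4. The groups overlap, but the ventral midbrain library was 1.37, 1.51 and 1.43 times its numbered control. SPRY2 did not pass the main test (log2 fold change 0.51 ± 0.33, SE; edgeR adjusted p = 0.633) and rose in the fit with the replicate block (0.52 ± 0.13, SE; edgeR adjusted p = 0.0187). No other fit that was run called it.

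The other Sprouty and SPRED genes, whose products restrain RAS and RAF, did not pass in either fit. SPRY1 was at 17.6, 13.6 and 10.3 CPM in control and 19.96, 17.8 and 6.87 CPM in ventral midbrain libraries, higher in pairs 2 and 3 and lower in pair 4. SPRY4 was at 2.12 to 2.99 and 1.29 to 3.69 CPM and had the same directions by pair. SPRED1 was at 53.6 ± 3.01 and 51.5 ± 4.15 CPM (SD, n = 3), with a fitted log2 difference of -0.06 ± 0.15 (SE), and SPRED2 was at 8.32 ± 3.08 and 7.25 ± 0.409 CPM. SPRED3 was at 3.03 to 4.61 CPM in control and at 2.86, 8.78 and 3.29 CPM in ventral midbrain replicates 2, 3 and 4, so that replicate 3 alone stood above the control range. IL17RD, which encodes the membrane inhibitor SEF, was at 22.7, 28.7 and 37.5 CPM in control and 21.97, 24.1 and 22.3 CPM in ventral midbrain libraries. It was lower in all 3 pairs, by little in pair 2 (log2 fold change -0.38 ± 0.21, SE; edgeR adjusted p = 0.558).

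DUSP6, the cytoplasmic ERK phosphatase often read as a gauge of FGF signalling, was at 41.6, 28.0 and 16.8 CPM in control and 35.4, 40.1 and 9.24 CPM in ventral midbrain replicates 2, 3 and 4. Its values varied more between numbers than between groups (log2 fold change -0.03 ± 0.60, SE; edgeR adjusted p = 0.995), and the standard error leaves room for a change of 2-fold in either direction. DUSP5, a nuclear ERK phosphatase, was at 9.83 to 16.8 and 7.76 to 21.5 CPM, with replicate 2 the highest in both groups. Neither gene passed in either fit.

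The ETV factors, ETS proteins induced by FGF and ERK, split the ventral midbrain libraries. ETV5 was at 41.5, 46.2 and 33.7 CPM in control and at 28.6, 65.3 and 16.8 CPM in ventral midbrain replicates 2, 3 and 4. ETV1 was at 52.1, 49.7 and 47.2 CPM in control and at 37.4, 70.8 and 24.8 CPM in ventral midbrain libraries. ETV4 had 26, 40 and 39 reads in control and 5, 118 and 8 reads in ventral midbrain libraries. For all 3 genes ventral midbrain replicate 3 lay above every control library, and ventral midbrain replicates 2 and 4 lay below every control library. None passed the test (edgeR adjusted p = 0.963, 0.923 and 0.968). Without replicate 3 in both groups the log2 fold changes were -0.73 for ETV5, -0.67 for ETV1 and -2.41 for ETV4, still short of the threshold (edgeR adjusted p = 0.347, 0.28 and 0.329). The sign for ETV4 thus rests on replicate 3, and its main value of 0.29 ± 1.14 (SE) also turned negative with the replicate block (-0.95) and with voom (-1.23). Replicate 3 is also the number with the highest cell cycle level in both groups, and the part of this in the ETV values was not tested. ETV4 overlaps DHX8 on the opposite strand (322 to 496 reads per library), and ETV5 overlaps DGKG on the same strand (11 to 21 reads).

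Counted over the 13 feedback genes, 6 were higher in ventral midbrain in pair 2, 9 in pair 3 and 2 in pair 4, and 3 had the same direction in all pairs (DUSP4, IL17RD and SPRY2). Replicate 4 was the lowest of the 3 libraries for 9 of the 13 genes in control and for 9 of the 13 in ventral midbrain. The highest library was replicate 2 for 8 genes in control and replicate 3 for 8 genes in ventral midbrain. Much of the spread of these genes therefore ran between numbered libraries, and with 1 library per number and group the difference between pairs could not be tested.

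**Figure D4:**
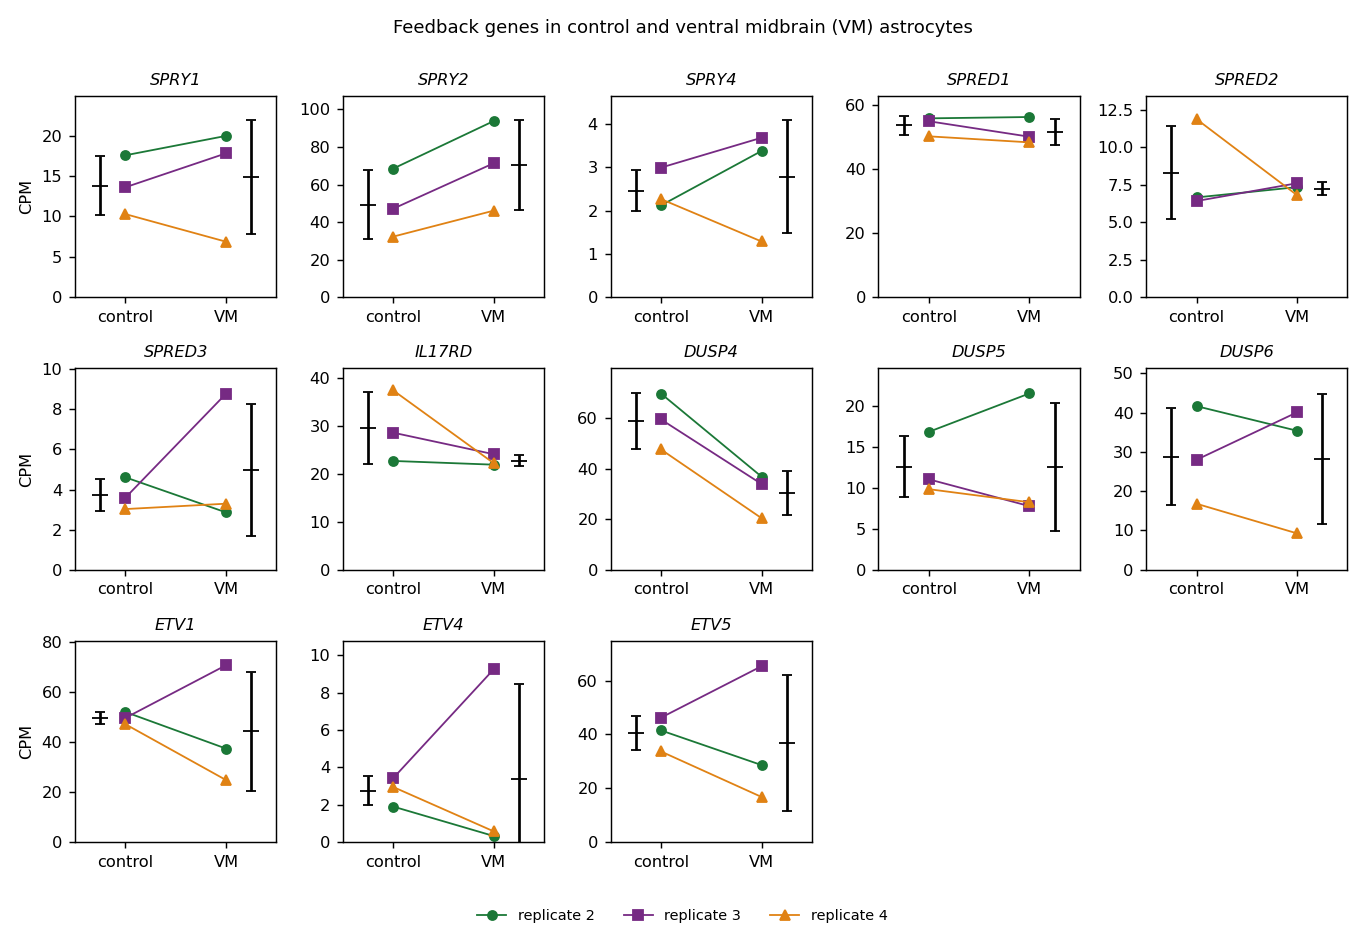
CPM of the 13 feedback genes in control and ventral midbrain (VM) libraries, with axes from 0, lines joining libraries of the same number, and black bars for the mean ± SD of 3 libraries (cut off at 0 for ETV4). The DUSP4 lines all slope down and the SPRY2 lines all slope up, while for ETV1, ETV4 and ETV5 replicate 3 slopes up and replicates 2 and 4 slope down.

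The wider pathway was read from 75 further genes in 5 lists, of which 64 were tested. Of these 0 passed as higher and 2 as lower, ANOS1 and HS6ST3, against 1.06% and 1.09% of all genes tested. The median log2 fold change was -0.03. With the replicate block 2 were higher and 4 lower, against 3.63% and 4.50% of all genes. ANOS1 (anosmin-1), an extracellular protein that binds FGFR1 and heparan sulfate, fell from 90.6, 63.1 and 103 CPM in control to 52.2, 41.0 and 38.7 CPM in ventral midbrain replicates 2, 3 and 4 (log2 fold change -0.96 ± 0.21, SE; edgeR adjusted p = 0.0408). It lost the call without any library except control replicate 3 (highest edgeR adjusted p = 0.179), under the gene-length offset (0.112) and on the deposited values in limma (0.0878). HS6ST3, which adds 6-O-sulfate to heparan sulfate, fell from 8.92, 3.94 and 10.3 CPM to 0.65, 1.57 and 0.788 CPM (log2 fold change -2.95 ± 0.52, SE; edgeR adjusted p = 0.0178). Its call was lost without control replicate 2 or 4 or ventral midbrain replicate 2 or 4 (highest edgeR adjusted p = 0.0895) and with voom (0.0606).

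Among the 15 tested heparan sulfate genes SULF1, which removes 6-O-sulfate outside the cell, was at 7.93 ± 1.76 and 15.4 ± 2.65 CPM (SD, n = 3; edgeR adjusted p = 0.107). It rose in the fit with the replicate block, as did the 3-O-sulfotransferase gene HS3ST3A1 (edgeR adjusted p = 0.0277 and 0.0281). HS2ST1, at 73.2 ± 3.65 and 89.6 ± 1.59 CPM, and NDST1, at 72.3 ± 13.9 and 82.0 ± 1.2 CPM, were the list's most read genes and did not pass. Of the 7 tested co-receptors and binding proteins ANOS1 alone passed, and NCAM1 was the most read, at 109 ± 10.1 and 121 ± 20.5 CPM. KL and KLB, the co-receptors of endocrine FGFs such as FGF19, had 5 reads and 1 read in all.

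None of the 23 RAS-ERK chain genes was called by edgeR in either fit. In the main fit 0 of them reached an unadjusted p under 0.05, and their log2 fold changes lay between -0.30 and 0.33. With the replicate block GRB2 and SOS2 were higher and MAPK3 lower at an unadjusted p under 0.05 (edgeR, 0.0176, 0.029 and 0.0442). The share of all genes at that level in the blocked fit was not counted, so no change of the chain is read from them. GRB2, at 88.5 ± 9.51 and 110.5 ± 16.9 CPM (SD, n = 3; edgeR adjusted p = 0.496), and SOS2, at 37.7 ± 6.37 and 47.3 ± 4.07 CPM, had the smallest p. The most read were SHC1, an adaptor, and PTPN11, the phosphatase SHP2, at 234.5 and 227.5 CPM and at 110 and 107 CPM. Of 19 other genes that respond to ERK, or are acted on by it as proteins, edgeR called 0 in the main fit. Of their fold changes 12 were negative and 7 positive. At an unadjusted p under 0.05 there were 5, against 12.0% of all genes tested. Of these PHLDA1, IER2, ERF and CIC were lower, and DUSP7 was higher (15.5 ± 3.55 to 23.4 ± 1.34 CPM; SD, n = 3). ERF and CIC encode repressors that ERK acts on as proteins, so their RNA is not a measure of ERK activity. PHLDA1, at 132 ± 34.99 and 75.2 ± 8.91 CPM (SD, n = 3; edgeR adjusted p = 0.0761), and the immediate early gene IER2, at 149 ± 63.7 and 92.2 ± 11.1 CPM, fell in the fit with the replicate block (edgeR adjusted p = 0.00473 and 0.0209). IER3, the most read gene of this list, was at 328 ± 154 and 219 ± 57.9 CPM (SD, n = 3) and did not pass in either fit. EGR1, an early ERK target, was at 459 CPM in control replicate 2 and 201 CPM in ventral midbrain replicate 2 but at 28.9 to 100.99 CPM elsewhere. The remaining FGF ligands were too low to be tested. FGF16 and FGF22 had at most 8 reads per library. FGF3 had 2, 2 and 15 reads in control and none in ventral midbrain libraries, FGF4 had 0, 5 and 10 and then 0, 0 and 3 reads, and FGF6, FGF21 and FGF23 had none.

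**Figure D5:**
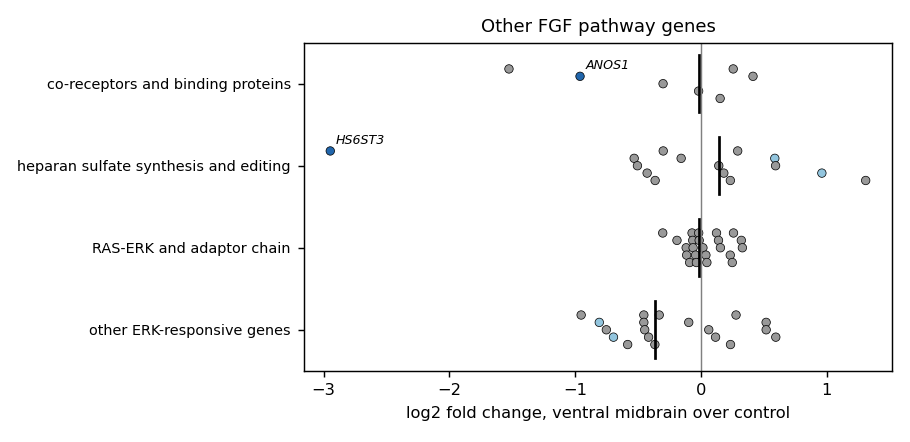
Log2 fold change of ventral midbrain over control for the 64 tested genes of 4 further pathway lists, 1 point per gene, with vertical bars at the list medians; vertical scatter within a list has no meaning. Dark blue points passed edgeR's test (ANOS1, HS6ST3), light blue points passed only with the replicate block, and the RAS-ERK chain stays between -0.30 and 0.33.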

How the data were processed

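The authors made estimated counts and effective lengths per transcript with Salmon, and the same deposited files give TPM, which the authors' Salmon runs scaled to each library's total. The submitters' processing notes also list DESeq2 1.27.12 and GRCh38.p13 but no Salmon version. A further deposited table holds normalized signal, in which the authors give 1 value per gene and library for 21509 genes, 30 of the 35 among them; no source used here states its scaling. Here, estimated counts were summed per gene with GENCODE 29 (GRCh38), which matched 205225 of 226608 transcripts by identifier without version, and rounded. Unmatched transcripts held 0.992% to 1.12% of reads. Genes were filtered with filterByExpr, scaled by TMM and tested with edgeR 4.0.16 (quasi-likelihood, robust, Benjamini-Hochberg over 15984 genes) in R 4.3.3. No length factor entered, since 3' end reads do not scale with length, and CPM use the TMM-scaled library size. Each standard error is the size of the fold change on the log2 scale over the root of F. TPM served only for receptor shares.

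The groups share the numbers 2, 3 and 4. Deviations from group means correlated at 0.234, 0.345 and 0.204 between same-numbered libraries and at most at 0.0237 between others, so the numbers were treated as pairing the libraries from the data, as no label says what they share. Deviations within 3 libraries depend on each other. Blocked values stand where they change a call of the 35 genes or of the pathway and organizer lists. For the marker lists they are given for some single genes only, and that fit called further marker genes.

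The genes and lists were chosen with earlier results of these data known. All 35 genes are accounted for. From the pathway and organizer lists the text names genes past the threshold in either fit, up to 2 of smallest p and up to 2 of highest level. Some further genes of these lists were added after their values were seen. Marker lists are given by their sums and counts, with single genes chosen after their values were seen. The fit was tested on simulated data. The alternatives tried were scaling by RLE or upper quartile, no filter, 2 CPM in 3 libraries, DESeq2 1.42.0, limma 3.58.1 (voom, and the deposited values on log2(value + 1)), a gene-length offset, protein-coding genes alone, the replicate block and leaving out libraries. Figures used matplotlib 3.10.9.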

Additional observations from a re-analysis of the deposited data

How the results depend on the processing

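With 3 libraries per group, genes short of the threshold are not shown to be equal, and ligands with a few reads per library were limited by depth. Over all genes 344 passed in the main fit, 1012 with no low-count filter, 750 with DESeq2, 173 with the gene-length offset, 1300 with the replicate block and 131 to 258 without 1 library (131 without control replicate 4). Of the 35 genes, 0 passed as higher, and 1 (SPRY2) with the replicate block, which changed no call of the 29 tested genes beyond SPRY2, DUSP4 and FGF19. As lower, 1 passed in the main fit, 3 with no filter, with DESeq2 and with the replicate block, and 0 with the gene-length offset and without any 1 library (0 in each). The cause was not tested. The median log2 fold change of the tested genes stayed between -0.35 and 0.02 in the alternatives run.

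Single genes that turned sign were all short of the threshold. With the deposited values in limma the log2 fold change was -1.11 for ETV4, -0.0621 for SPRY1, -0.27 for SPRY4 and -0.12 for SPRED3. With voom it was -1.23 for ETV4 and -0.000708 for SPRY1, and with the replicate block -0.95 for ETV4. The gene-length offset gave 0.0501 for DUSP5 and -0.28 for SPRY4, and no filter gave 0.00198 for DUSP5 and 0.0018 for FGFRL1. Without replicate 3 in both groups, chosen after seeing the data, it was 0.16 for DUSP5, -2.41 for ETV4, 0.0198 for FGFRL1, -0.31 for SPRED3 and -0.0501 for SPRY1. Without 1 library the ranges were -0.67 to 0.12 for ETV1, -1.15 to 0.0302 for FGF10, -0.0842 to 0.0665 for FGFRL1, -0.66 to 0.27 for DUSP5, -0.37 to 0.39 for DUSP6, -0.66 to 0.17 for FGFR4, -0.18 to 0.45 for SPRY1, -0.12 to 0.0459 for FRS2, -2.60 to 0.81 for ETV4, -0.0704 to 0.52 for SPRY4, -0.28 to 0.68 for SPRED3, -0.35 to 0.14 for SPRED2 and -0.83 to 0.21 for ETV5.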

Other observations

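FGFR1 reads were divided by Salmon among several transcripts. In control replicates 2, 3 and 4 FGFR1-242 took 82.99%, 85.8% and 88.7% of them, and in the ventral midbrain libraries of these numbers 76.8%, 68.3% and 75.0%. FGFR1-238, annotated to end at 38411231 where FGFR1-242 ends at 38411139 (GRCh38 chromosome 8, minus strand), took 5.39%, 0% and 1.32% and then 15.5%, 16.5% and 13.1%. Every ventral midbrain library had the higher FGFR1-238 share. In 3' end libraries such a split between transcripts with such close ends is uncertain, and it was not tested. LETM2, which overlaps FGFR1 on the opposite strand, had 94, 56 and 38 reads in control and 14, 23 and 16 in ventral midbrain libraries (edgeR adjusted p = 0.0956).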
